A study of Homo sapiens with 6 samples.

Results

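Translation initiation factors, the proteins that bring the small ribosomal subunit and the initiator tRNA to the start codon of an mRNA, were read in short RNA fragments from SW1736 cells at 2 oxygen levels. SW1736 is an established human cell line from an anaplastic thyroid carcinoma, the least differentiated form of thyroid cancer. Cells were kept for 72 h at 2% O2 (hypoxia, 3 libraries) or at 21% O2 (normoxia, 3 libraries), with no other agent or genetic change named in the labels. The members were the genes of the mRNA table whose symbol begins with EIF1 to EIF6, without the eIF2 kinases, whose symbols begin with EIF2AK. They came to 52 of the 20288 genes in the table, and were grouped by symbol as eIF1 (5 genes), eIF2 (6), eIF2B (5), eIF3 (14), eIF4 (13), the 4E-BPs (3), and eIF5 with eIF6 (6). A gene placed in a group by its symbol need not be a subunit of that factor. The libraries were made from small RNA, so what is counted for a gene are short pieces of RNA that aligned to its transcript, not intact mRNA.

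In the cap-dependent route, eIF2 carries the initiator tRNA with GTP, and eIF2B recharges eIF2 after each round. eIF1, eIF1A, eIF3 and eIF5 assemble with eIF2 on the small subunit, and eIF4F (the cap-binding protein eIF4E, the scaffold eIF4G and the helicase eIF4A) brings that subunit to the capped end of the mRNA. The 4E-BPs hold eIF4E away from eIF4G when mTORC1 is inactive, and phosphorylation of the alpha subunit of eIF2 blocks eIF2B. Low oxygen is known to act on both of these steps through phosphorylation, which fragment counts do not measure. In bulk samples such as these, fewer cells with a transcript and less of it per cell cannot be told apart.

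None of the 49 initiation factor genes that passed the filter on low counts was called in hypoxia over normoxia, while 4 genes used as a check of the hypoxic response were. The quasi-likelihood test of edgeR was used, with p-values adjusted by Benjamini and Hochberg's method over all 11276 features of the mRNA and miRNA tables that passed the filter and a threshold of 0.05. Among the 11082 mRNA features tested, 0.596% were called higher and 0.162% lower in hypoxia (0.758% in either direction), and the count among the members was 0 in each direction. It was also 0 with DESeq2 and with limma-voom. At an unadjusted p under 0.05, 4 members were higher (EIF1, EIF2S2, EIF2B2 and EIF5A2) and 3 were lower (EIF4G1, EIF4A3 and EIF4G3), which is 14.3% of the members tested against 10.3% of all mRNA features (5.58% higher and 4.67% lower). The count of 4 was 0 without hypoxia replicate 2, 1 without normoxia replicate 1, 2 without normoxia replicate 3 and 1 with DESeq2. The count over all mRNA features that were higher at that p, 618 in the fit used here, was then 489, 515, 599 and 342 in the same order. Without hypoxia replicate 2 the log2 fold changes of these 4 members were 0.23 for EIF1, 0.17 for EIF2S2, 0.51 for EIF2B2 and 0.38 for EIF5A2. The check genes were CA9, a carbonic anhydrase (log2 fold change 3.67, adjusted p = 0.000568 from edgeR), NDRG1 (1.71), BNIP3 (1.21) and PGK1, an enzyme of glycolysis (0.73). The paper already lists NDRG1, BNIP3 and PGK1 as higher in hypoxia in this experiment, so their calls are not an independent check. CA9 had 23, 23 and 11 counts in hypoxia, against 1, 3 and 0 in normoxia, so the size of its change is uncertain (standard error 0.640).

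The 6 libraries held 1650719, 1781753 and 1469151 counts in hypoxia replicates 1 to 3, against 1543856, 1581194 and 1610177 in normoxia replicates 1 to 3. Initiation factors took 0.973% to 0.989% of these counts in hypoxia and 0.983% to 1.00% in normoxia. The labels leave unsaid whether each replicate had its own culture, and the p-values cover only the library-to-library spread, which may be technical. Of the thyroid markers, TG and TSHR had under 10 counts in every library, SLC5A5 and NKX2-1 at most 10 and 11 counts, FOXE1 28 to 59 and PAX8 170 to 261. Of the epithelial markers, EPCAM and CDH1 were under 10 counts in every library, while KRT8 had 26 to 42 counts and KRT18 44 to 66. The mesenchymal markers VIM and FN1 were abundant, and VIM was called higher in hypoxia (log2 fold change 0.39, adjusted p = 0.0198 from edgeR). Of the leukocyte markers, PTPRC and CD3E were under 10 counts in every library and CD68 had 8 to 23, and the list summed to 9.73 to 15.6 normalized CPM (counts scaled by TMM to a common library size) in hypoxia, against 9.07 to 12.1 in normoxia. Of the endothelial markers, VWF was under 10 counts in every library, PECAM1 had 8 to 17 and CDH5 7 to 25, and the list summed to 18.1 to 20.2 normalized CPM in hypoxia, against 11.7 to 26.7 in normoxia. The part of these markers in the results on initiation factors was not tested.

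Many genes of the translation machinery start their mRNA with a C followed by a run of pyrimidines, the TOP (terminal oligopyrimidine) start, through which mTORC1 controls their translation. RefSeq promoter windows of GRCh38.p14, 300 bases long with 250 before and 50 after the listed start, were matched for 44 of the 52 members. A start base C with at least 4 of C or T after it was found in 10 of these 44 (22.7%), against 915 of 14486 genes with such a window (6.32%). They were 4 genes of the eIF2 group (EIF2A, EIF2D, EIF2S3 and EIF2S3L), 4 of eIF3 (EIF3D, EIF3F, EIF3K and EIF3M), EIF4A2 and EIF4B. Windows of 30 bases around the start are shown for 7 of the 10, with the pyrimidine run from the start base in capitals, because this start is a feature that members of several factors share. EIF2S3 and EIF2S3L are both shown since they are near-identical copies.
EIF3D, chr22:36529152-36529181, minus strand: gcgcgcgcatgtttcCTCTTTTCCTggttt
EIF3F, chr11:7987322-7987351, plus strand: ttccgcttccgcctcCTTCTTTCTCgacaa
EIF3M, chr11:32583816-32583845, plus strand: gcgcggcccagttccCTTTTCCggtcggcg
EIF4B, chr12:53006441-53006470, plus strand: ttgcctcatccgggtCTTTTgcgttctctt
EIF4A2, chr3:186783562-186783591, plus strand: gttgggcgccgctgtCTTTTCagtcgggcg
EIF2S3, chrX:24054941-24054970, plus strand: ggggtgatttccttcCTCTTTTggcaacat
EIF2S3L, chr12:10505875-10505904, plus strand: ggggtgactttcttcCTCTTTTggcaacat
The 10 members with such a start had a median log2 fold change of 0.07 (-0.23 to 0.15), and the 31 other tested members with a window had a median of -0.07 (-0.53 to 0.51). None of either set was called.

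The hypoxia-inducible factors bind DNA at ACGTG or GCGTG. These letters, searched on both strands, were found in the windows of 35 of the 44 members (79.5%), against 62.4% of all genes with a window. The windows of the member with the lowest p in each direction are shown, with these letters in capitals; in EIF4G1, CACGTG holds ACGTG on both strands. EIF4G1 has 3 listed starts, and the window of the one listed first is given.
EIF4G1, chr3:184314356-184314655, plus strand: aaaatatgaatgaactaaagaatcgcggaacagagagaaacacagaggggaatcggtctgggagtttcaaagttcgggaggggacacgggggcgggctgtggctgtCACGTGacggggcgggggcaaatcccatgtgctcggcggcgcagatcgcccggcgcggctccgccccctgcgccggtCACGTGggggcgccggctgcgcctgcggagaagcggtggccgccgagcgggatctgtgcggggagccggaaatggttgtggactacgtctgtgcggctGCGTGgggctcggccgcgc
EIF1, chr17:41688635-41688934, plus strand: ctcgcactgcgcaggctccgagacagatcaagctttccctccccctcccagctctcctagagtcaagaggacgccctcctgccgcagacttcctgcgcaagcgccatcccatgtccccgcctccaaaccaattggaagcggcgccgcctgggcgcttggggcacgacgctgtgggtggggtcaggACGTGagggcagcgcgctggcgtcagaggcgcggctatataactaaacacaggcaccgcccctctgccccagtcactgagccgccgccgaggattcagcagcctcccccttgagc
The EIF4G1 window holds 5 matches and the EIF1 window 1. A match is a description of the letters, and binding was not measured here.

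Over the 49 members the median log2 fold change was 0.0089, with quartiles of -0.15 and 0.09 and a range of -0.53 to 0.51. It was below 0 in 24 of the 49, which is 49.0%, against 51% of all mRNA features tested. Over all mRNA features tested the median was -0.0060, with quartiles of -0.17 and 0.18. The median size of the change, whatever its sign, was 0.12 among the members and 0.17 among all mRNA features, and the median standard error was 0.13 among the members and 0.22 among all mRNA features. The 95% interval of the log2 fold change held 0 for 42 of the 49 members. It lay within a 1.5-fold change in either direction for 37 members and within a 2-fold change for all 49. The median distance from the estimate to the end of its interval was 0.27 on the log2 scale.

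**Figure D1:**
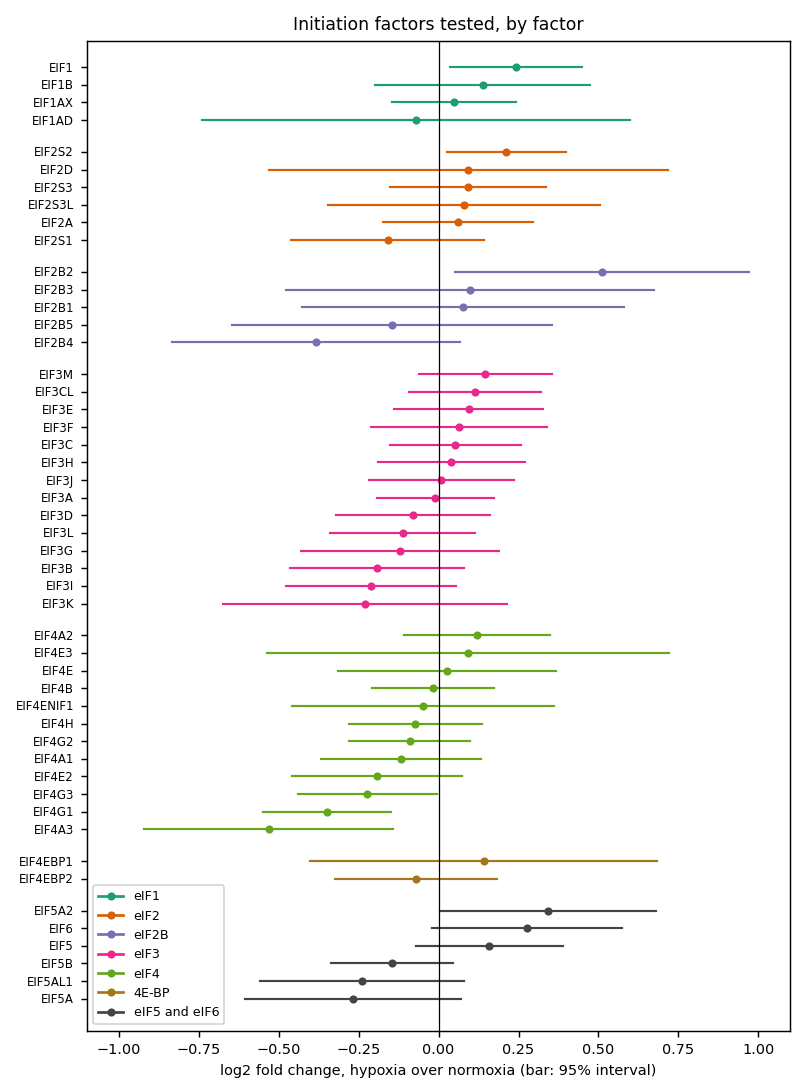
Log2 fold change of hypoxia over normoxia (horizontal axis) for each of the 49 tested members, grouped and coloured by factor, with the point for the estimate and the bar for its 95% interval. The vertical line marks no change, and the bars of 42 members cross it.

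The scaffold EIF4G1, which joins eIF4E, eIF4A and eIF3, had the lowest p of the members. It lies on chromosome 3 from 184314495 to 184335358 on the plus strand (GRCh38, GENCODE 44). EIF4G1 had 390, 382 and 420 normalized CPM in hypoxia replicates 1 to 3, against 509, 552 and 456 in normoxia replicates 1 to 3. All 3 hypoxic libraries lay below all 3 normoxic ones. Its log2 fold change was -0.35 (standard error 0.0991, 95% interval -0.55 to -0.15, adjusted p = 0.0925 from edgeR), so it did not pass the test. The adjusted p lay between 0.0596 and 0.421 over 15 alternative settings, and the unadjusted p between 0.000442 and 0.0107.

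The other scaffolds were less far apart. EIF4G3, a paralog that also binds eIF4E, had 280, 258 and 237 normalized CPM in hypoxia, against 314, 261 and 331 in normoxia. The lowest normoxic library lay inside the hypoxic range (log2 fold change -0.22, standard error 0.107, adjusted p = 0.466 from edgeR). EIF4G2, the paralog that lacks the eIF4E binding site and serves cap-independent initiation, had 579, 549 and 588 normalized CPM in hypoxia, against 606, 614 and 606 in normoxia. Its hypoxic libraries were all below the normoxic ones, with a log2 fold change of -0.09 (edgeR, adjusted p = 0.797).

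Among the eIF4A helicases, EIF4A1, the main helicase of eIF4F, had 115, 131 and 125 normalized CPM in hypoxia, against 139, 147 and 116 in normoxia (log2 fold change -0.12). EIF4A2, its close paralog, had 159, 166 and 160 normalized CPM in hypoxia, against 151, 136 and 159 in normoxia (log2 fold change 0.12). Both sets of values overlapped. EIF4A3 is the helicase of the exon junction complex, which marks spliced mRNA, and is not part of eIF4F. EIF4A3 had 28.2, 40.9 and 34.0 normalized CPM in hypoxia, against 51.8, 54.0 and 43.8 in normoxia, with no overlap. Its log2 fold change was -0.53 (standard error 0.192, adjusted p = 0.237 from edgeR; 0.222 to 0.586 over 15 alternatives).

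The cap-binding protein EIF4E had 49.6, 65.1 and 51.4 normalized CPM in hypoxia, against 57.0, 52.7 and 54.0 in normoxia (log2 fold change 0.03), and the hypoxic libraries lay on either side of the normoxic ones. EIF4E2 (4EHP) binds the cap without EIF4G1 and was described in other human cells as part of a hypoxic cap-binding complex with RBM4 and HIF-2 alpha. EIF4E2 had 87.6, 86.5 and 98.7 normalized CPM in hypoxia, against 95.9, 109 and 106 in normoxia (log2 fold change -0.19, adjusted p = 0.664 from edgeR). The HIF-2 alpha gene, EPAS1, was not among the genes read here. The paper lists EPAS1 among its differentially expressed transcripts, as lower in hypoxia. EIF4B, a cofactor of eIF4A and the most abundant gene of the group, had 599, 668 and 605 normalized CPM in hypoxia, against 641, 600 and 653 in normoxia (log2 fold change -0.02, 95% interval -0.21 to 0.17). Of the 4E-BPs, EIF4EBP2 had 139, 118 and 117 normalized CPM in hypoxia, against 117, 127 and 150 in normoxia, and EIF4EBP1 had 23.3, 20.2 and 18.8 in hypoxia, against 18.8, 24.4 and 13.3 in normoxia. Neither was called and both overlapped. EIF4EBP3 and EIF4E1B were below the filter, with at most 6.35 and 2.59 normalized CPM in any library.

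**Figure D2:**
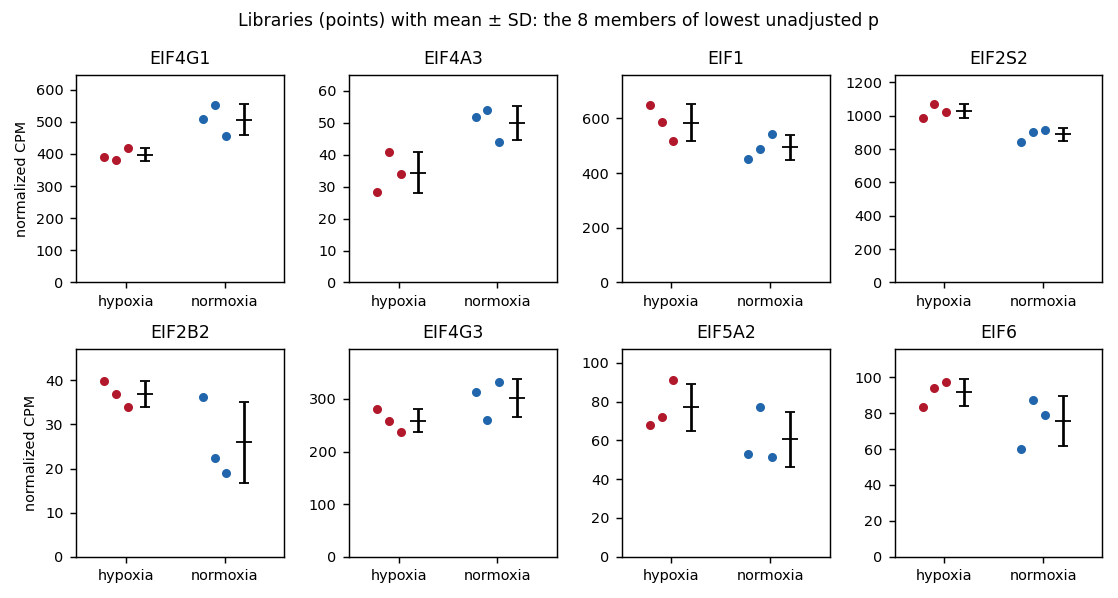
Normalized CPM (vertical axis, from 0) of the 8 members with the lowest unadjusted p, with a point for each library of hypoxia (red) and normoxia (blue) and black bars for the mean ± SD (n = 3 each). Only in EIF4G1, EIF4A3 and EIF2S2, of these 8, do the groups not overlap.

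Higher in hypoxia at an unadjusted p under 0.05 (edgeR) were EIF1, EIF2S2, EIF2B2 and EIF5A2. They made up 8.16% of the members tested, against 5.58% of all mRNA features tested. EIF1, which guards start codon choice on the small subunit, had 650, 586 and 516 normalized CPM in hypoxia, against 451, 489 and 542 in normoxia. Only the highest normoxic library reached into the hypoxic range (log2 fold change 0.24, standard error 0.102, adjusted p = 0.365 from edgeR). Of the genes grouped with it by symbol, EIF1AX (log2 fold change 0.05), EIF1B (0.14) and EIF1AD (-0.07) overlapped between hypoxia and normoxia. EIF1AY was not tested.

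EIF2S2, the beta subunit of eIF2, had 986, 1073 and 1025 normalized CPM in hypoxia, against 842, 904 and 917 in normoxia. It was the sole member with all 3 hypoxic libraries above all 3 normoxic ones (log2 fold change 0.21, standard error 0.0918, adjusted p = 0.386 from edgeR). EIF2S1, the alpha subunit that the stress kinases phosphorylate, had 71.7, 95.1 and 79.9 normalized CPM in hypoxia, against 97.8, 105 and 73.0 in normoxia (log2 fold change -0.16, adjusted p = 0.768 from edgeR). The gamma subunit EIF2S3 had a log2 fold change of 0.09, and 0.09 when its near-identical copy EIF2S3L was added to it. The 95% intervals of EIF2S1 (-0.46 to 0.14), EIF2S2 (0.03 to 0.40) and EIF2S3 (-0.15 to 0.34) overlapped, and no test of the difference between subunits was made.

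Of the 5 subunits of eIF2B, EIF2B2 (beta) had 39.8, 36.9 and 34.0 normalized CPM in hypoxia, against 36.3, 22.5 and 19.0 in normoxia. Its log2 fold change was 0.51 (standard error 0.227, adjusted p = 0.403 from edgeR). The highest normoxic library lay inside the hypoxic range. The value was 0.33 without normoxia replicate 3 and 0.83 without normoxia replicate 1. EIF2B4 (delta) had 23.9, 24.2 and 21.5 normalized CPM in hypoxia, against 31.1, 29.6 and 30.5 in normoxia, with no overlap (log2 fold change -0.38, standard error 0.223, adjusted p = 0.582 from edgeR). EIF2B5 (epsilon), the catalytic subunit, had 22.1, 17.9 and 22.9 normalized CPM in hypoxia, against 21.4, 21.9 and 26.0 in normoxia. These are among the least abundant members, and the interval of EIF2B5 ran from -0.65 to 0.36.

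The 14 genes of eIF3, the largest initiation factor, all overlapped between hypoxia and normoxia. Their median log2 fold change was -0.0006, with 7 above 0 and 7 below, from -0.23 in EIF3K to 0.15 in EIF3M. EIF3A, the largest subunit, had 1104, 1165 and 1212 normalized CPM in hypoxia, against 1121, 1186 and 1198 in normoxia. Its 95% interval of -0.19 to 0.17 was the narrowest of the members. EIF3I had 90.7, 120 and 104 normalized CPM in hypoxia, against 120, 136 and 110 in normoxia, the lowest p of the group (log2 fold change -0.21, adjusted p = 0.614 from edgeR). EIF3C and EIF3CL are near-identical copies on chromosome 16 whose reads the counting may have split between them, and their sum differed by 0.08 on the log2 scale (edgeR, adjusted p = 0.823).

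Levels of the eIF3 subunits differed far more between genes than between oxygen levels. Per kb of the transcript listed in the file, EIF3A was highest (175 normalized CPM per kb in hypoxia and 176 in normoxia) and EIF3F lowest (18.3 in hypoxia and 17.5 in normoxia). Per kb of coding sequence (GENCODE 44), EIF3M was highest (330 normalized CPM per kb in hypoxia and 299 in normoxia) and EIF3B lowest (40.1 in hypoxia and 45.7 in normoxia). The order thus depended on the length used, and both lengths are given. The authors state that reads on parts of mRNAs that do not code for protein were left out of their final analysis. Whether the deposited counts hold such reads was not tested, so the length that applies is not known. Over all members, EIF2S2 was highest per kb of transcript (387 normalized CPM per kb in hypoxia and 334 in normoxia) and EIF1 per kb of coding sequence (1724 in hypoxia and 1458 in normoxia).

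**Figure D3:**
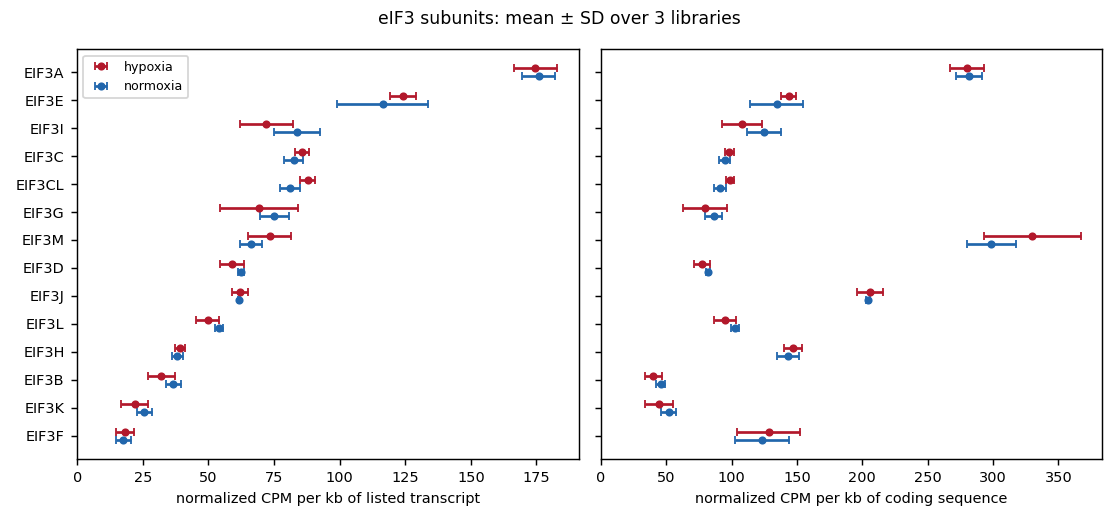
Mean normalized CPM per kb of the listed transcript (left) and of the coding sequence (right) for the 14 eIF3 genes in hypoxia (red) and normoxia (blue), with bars for the SD over 3 libraries. The genes spread from 18.3 to 175 per kb of transcript in hypoxia and from 17.5 to 176 in normoxia, while the points of a gene lie close together.

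The last group, eIF5 with eIF6, holds genes that act at different steps. EIF5B, the GTPase that joins the ribosomal subunits, had 701, 725 and 774 normalized CPM in hypoxia, against 781, 869 and 782 in normoxia, with no overlap (log2 fold change -0.15, standard error 0.0938, adjusted p = 0.634 from edgeR). EIF5, which makes eIF2 hydrolyse its GTP, had 178, 188 and 228 normalized CPM in hypoxia, against 167, 188 and 176 in normoxia (log2 fold change 0.16). EIF6, which keeps the large subunit apart from the small one, had 83.4, 94.0 and 97.3 normalized CPM in hypoxia, against 60.3, 87.4 and 78.7 in normoxia (log2 fold change 0.28, adjusted p = 0.527 from edgeR).

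EIF5A, which carries hypusine and mainly helps elongation and termination, had 52.1, 54.8 and 59.1 normalized CPM in hypoxia, against 51.2, 75.8 and 72.4 in normoxia (log2 fold change -0.27). Its paralog EIF5A2 had 68.0, 72.1 and 91.0 normalized CPM in hypoxia, against 53.1, 77.1 and 51.4 in normoxia (log2 fold change 0.34, adjusted p = 0.475 from edgeR). That fold change was 0.21 without hypoxia replicate 3 and 0.55 without normoxia replicate 2. Reads of EIF5A and EIF5AL1, a near-identical copy on another chromosome, may be split between them, and their sum differed by -0.25 on the log2 scale (edgeR, adjusted p = 0.482).

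All 3 hypoxic libraries were below all 3 normoxic ones in 6 members (EIF4G1, EIF4A3, EIF2B4, EIF5B, EIF5AL1 and EIF4G2) and above them in 1 (EIF2S2). Together that is 14.3% of the members tested, against 15.3% of all mRNA features (8.27% above and 7.01% below).

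Summed over each group of symbols, the fragments of the eIF4 group were fewer in hypoxia, while the sum over all members was level. The eIF2 and eIF1 sums were higher in hypoxia, mostly through single genes. EIF2S2 made up 140 of the 149 normalized CPM by which the eIF2 means differ, and EIF1 90.2 of 111 for eIF1. The 13 eIF4 genes had 2614 ± 38.3 normalized CPM in hypoxia and 2847 ± 12.1 in normoxia (SD, n = 3 each), a ratio of 0.918, with 2575 to 2652 in hypoxia, against 2837 to 2860 in normoxia. Of the 12 tested, 9 had a log2 fold change below 0, where 51% of all mRNA features tested did. As a share of all initiation factor fragments, which does not depend on the scaling, eIF4 took 26.1 ± 0.108% in hypoxia and 28.4 ± 0.614% in normoxia. EIF4G1 made up 108 of the 234 normalized CPM by which the means differ. Without it the sum was 2216 ± 46.4 normalized CPM in hypoxia and 2342 ± 44.5 in normoxia, and its values still did not overlap.

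The 6 genes of the eIF2 group had 1460 ± 66.9 normalized CPM in hypoxia and 1311 ± 27.9 in normoxia, a ratio of 1.11 with no overlap. Almost all of the difference came from EIF2S2, and without that gene the sums overlapped, at 403 to 450 in hypoxia and 411 to 437 in normoxia. The eIF1 group had 1160 ± 59.9 normalized CPM in hypoxia and 1049 ± 31.9 in normoxia, also with no overlap, and without EIF1 the values overlapped, at 576 ± 9.39 in hypoxia and 555 ± 37.6 in normoxia. The sums of eIF3 (3312 ± 71.3 in hypoxia and 3293 ± 51.3 in normoxia), eIF2B (120 ± 6.31 in hypoxia and 116 ± 9.23 in normoxia), the 4E-BPs (148 ± 14.4 in hypoxia and 154 ± 16.1 in normoxia) and eIF5 with eIF6 (1212 ± 90.6 in hypoxia and 1257 ± 98.7 in normoxia) overlapped. All 52 members together had 10025 ± 165 normalized CPM in hypoxia and 10028 ± 182 in normoxia. These sums are given as values, with no test.

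**Figure D4:**
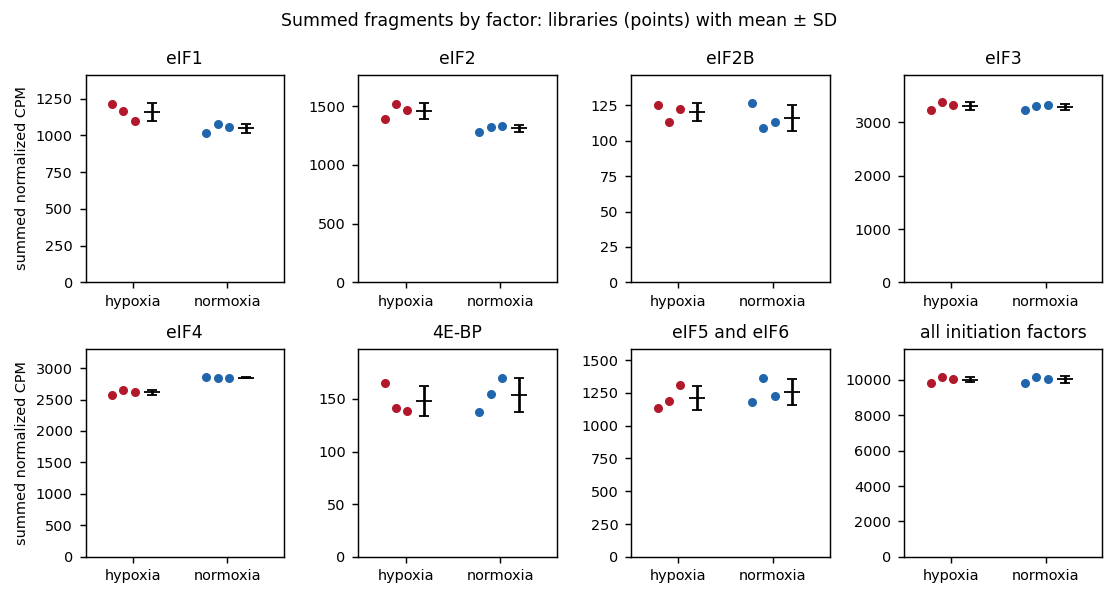
Summed normalized CPM (vertical axes, from 0) of the genes grouped by symbol under each factor and of all members, with a point for each library of hypoxia (red) and normoxia (blue) and black bars for the mean ± SD (n = 3 each). The eIF4 sums lie at 2575 to 2652 in hypoxia, below 2837 to 2860 in normoxia, and the sums of all members overlap.

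Ratios of counts between paralogs or partners within a library do not depend on scaling. Of 10 ratios compared, 2 did not overlap between hypoxia and normoxia. The ratio of EIF5A2 to EIF5A was 1.31, 1.32 and 1.54 in hypoxia, against 1.04, 1.02 and 0.711 in normoxia, 1.52-fold higher in hypoxia. With the counts of EIF5AL1 added to those of EIF5A, it was 0.686 ± 0.0548 in hypoxia and 0.453 ± 0.0751 in normoxia (SD, n = 3 each), again with no overlap. The ratio of EIF4G2 to EIF4G1 was 1.48, 1.44 and 1.40 in hypoxia, against 1.19, 1.11 and 1.33 in normoxia, 1.19-fold higher in hypoxia. Both had p = 0.1 in an exact two-sided permutation test, the smallest p that 3 libraries against 3 allow, and an adjusted p of 0.5 over the 10 ratios in that permutation test.

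The other 8 ratios overlapped, with exact permutation p-values of 0.3 to 1. The ratio of EIF4A2 to EIF4A1 was 1.31 ± 0.0647 in hypoxia and 1.13 ± 0.223 in normoxia, and that of EIF4E2 to EIF4E was 1.67 ± 0.307 in hypoxia and 1.91 ± 0.202 in normoxia (SD, n = 3 each). The ratio of EIF4EBP1 to EIF4E, repressor to target, was 0.381 ± 0.0810 in hypoxia and 0.347 ± 0.109 in normoxia (SD, n = 3 each).

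**Figure D5:**
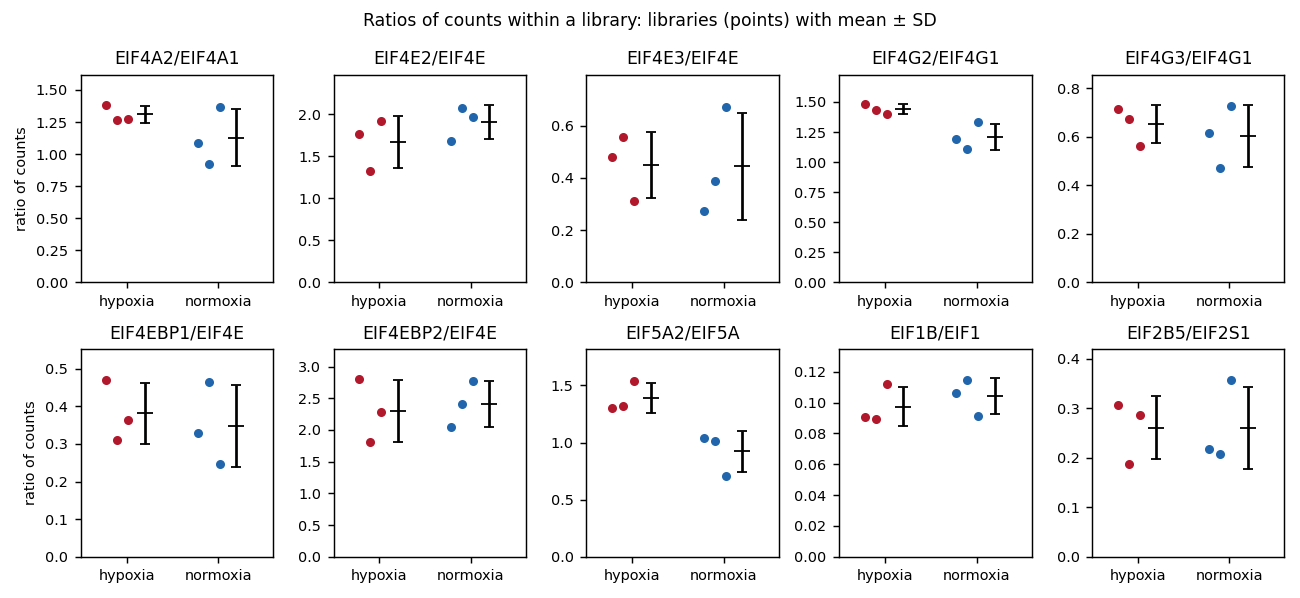
Ratio of counts (vertical axes, from 0) for the 10 pairs of paralogs or partners, with a point for each library of hypoxia (red) and normoxia (blue) and black bars for the mean ± SD (n = 3 each). The EIF5A2/EIF5A and EIF4G2/EIF4G1 ratios are higher in each hypoxic library than in any normoxic one, and the other 8 overlap.

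Among the regulators and partners of these factors, 1 gene was called, in the list of mTORC1 and MNK control with 14 genes tested. Over all mRNA features tested, 0.758% were called in either direction. DDIT4 (REDD1), an inhibitor of mTORC1 that hypoxia is known to induce, rose to 74.2, 73.2 and 72.3 normalized CPM in hypoxia, against 31.7, 34.1 and 49.5 in normoxia. Its log2 fold change was 0.93 (standard error 0.176, adjusted p = 0.00244 from edgeR). Of the other 13 tested genes of mTORC1 and MNK control none was called, and MTOR stood at -0.35 on the log2 scale (edgeR, adjusted p = 0.606). Of the 12 eIF2 kinases, phosphatase subunits and their partners none was called. PPP1R15A (GADD34), which guides the phosphatase to eIF2, had 139, 150 and 136 normalized CPM in hypoxia, against 100.4, 112 and 117 in normoxia, with no overlap (log2 fold change 0.36, standard error 0.121, adjusted p = 0.182 from edgeR). PPP1CB was also higher with no overlap (log2 fold change 0.22, adjusted p = 0.482 from edgeR). DNAJC3 went the other way with no overlap (log2 fold change -0.30, adjusted p = 0.368 from edgeR). Of all mRNA features tested, 15.3% did not overlap. The kinase PERK (EIF2AK3), which responds to stress of the endoplasmic reticulum, stood at -0.16 (edgeR, adjusted p = 0.866).

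No gene was called among 16 poly(A)-binding proteins and cap partners (median log2 fold change -0.14), 11 elongation factors and their modifying enzymes (-0.06), 8 factors of termination, recycling and rescue (-0.19) or 6 mitochondrial initiation and elongation factors (0.05). The median over all mRNA features was -0.0060, and 0.758% of them were called. In these lists, the log2 fold change was -0.28 for PABPC4, a poly(A)-binding protein (edgeR, adjusted p = 0.321), and -0.34 for ABCE1, which splits ribosomes after termination (adjusted p = 0.322). EEF1A1, which brings aminoacyl-tRNA to the ribosome, had 0.20 (adjusted p = 0.386), and MTIF2, the mitochondrial initiation factor that carries the initiator tRNA, had 0.36 (adjusted p = 0.266). RBM4, the partner of EIF4E2 named above, had -0.26 (adjusted p = 0.817).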

How the data were processed

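Small RNA of SW1736 cells was sequenced from CATS libraries, in which each RNA is tailed and copied without ligation, after selection for short inserts. The deposited tables are raw counts of reads for each mature miRNA and each protein-coding gene, which the authors made by trimming with Cutadapt, setting aside housekeeping small RNAs, aligning in turn to miRNAs and transcripts (hg38, Bowtie and Bowtie2 in the submitters' processing notes) and counting with eXpress. Reads of near-identical genes can be split between them by that counting.

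Both tables were joined, filtered with filterByExpr, scaled by TMM and fitted with the robust quasi-likelihood test of edgeR 4.0.16 in R 4.3.3, for the 3 hypoxia libraries against the 3 normoxia libraries with no covariate. DESeq2 1.42.0, limma 3.58.1, other scalings, no filter, the mRNA table alone and leaving out each library were alternatives. The fit without robust estimation and the fit with near-identical copies summed were chosen after seeing the data. The scripts were tested on simulated data. Ratios were compared with an exact permutation test over libraries. The members and lists were chosen with earlier results of these data known. Values in every library are given for the 10 tested members with the lowest p, the most abundant member of each factor, and EIF2S1, EIF2B5, EIF3A, EIF4E, EIF4E2, EIF4A1 and EIF4A2, with further ones of the followed members. Positions are from GENCODE 44, and sequences from RefSeq GRCh38.p14.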

Additional observations from a re-analysis of the deposited data

How the results depend on the processing

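The 15 alternatives left the count of members called at 0 in each direction, and of 359 fold changes of 24 followed members under them 351 kept their sign. The count higher in hypoxia at an unadjusted p under 0.05 was 4, 1 with DESeq2's Wald test (618 and 342 over all mRNA features), and between 0 (without hypoxia replicate 2, with 489 over all mRNA features) and 4 with 1 library left out. It was 1 without normoxia replicate 1 (515 over all mRNA features) and 2 without normoxia replicate 3 (599), and the count lower in hypoxia was 2 to 3 with 1 library left out. Replicates of the same number did not deviate together (correlations of -0.0048, 0.0035 and -0.094), and with a replicate block 4 members were higher and 2 lower at an unadjusted p under 0.05 and 0 were called. The median log2 fold change of the members was 0.0089, against -0.026 with no filter, -0.0005 with near-identical copies summed and -0.037 to 0.027 with 1 library left out. For 5 of the members and 5 of the ratios followed the sign turned, in each case with 1 library left out. Their log2 fold changes then ranged from -0.041 to 0.022 for EIF3A, -0.075 to 0.0089 for EIF4B, -0.12 to 0.10 for EIF4E, -0.058 to 0.37 for EIF4EBP1 and -0.16 to 0.034 for EIF4EBP2. The log2 differences of ratios ranged from -0.23 to 0.42 for EIF4E3/EIF4E, -0.043 to 0.27 for EIF4G3/EIF4G1, -0.057 to 0.40 for EIF4EBP1/EIF4E, -0.23 to 0.080 for EIF4EBP2/EIF4E and -0.13 to 0.26 for EIF2B5/EIF2S1. With 3 libraries a group, members of low abundance such as EIF2B5 are read with wide intervals. For each change above, the cause was not tested.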
